A study of Mus musculus with 2 samples.

Results

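The lymphoid priming genes of multipotent progenitors are genes of the lymphocyte programme that early blood progenitors already transcribe before they commit to a lineage. The group held 10 genes, Il7r, Ikzf1, Bcl11a, Tcf3, Mef2c, Satb1, Gata3, Dntt, Rag1 and Lax1, out of 19938 genes with a value. A gene was taken where a probe set, the group of probes that reports a transcript, carried exactly 1 gene symbol in the platform annotation and that symbol was one of the 10. Each of the 10 genes had 1 such probe set, and 0 probe sets with several symbols held one of these symbols. The probe set annotated to Lax1 is less sure than the others. Probe-set IDs mostly follow the chromosomes, and for the other 9 genes 8 to 10 of the 10 flanking IDs belong to genes of the same RefSeq chromosome. RefSeq places Lax1 on chromosome 1, but the 5 IDs before its own belong to genes of chromosome 19 and 4 of the 5 after it to genes of chromosome 2. Whether its probes report Lax1 was not tested.

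KSL cells are lineage-negative bone marrow cells positive for c-Kit and Sca-1, a fraction rich in blood stem cells and multipotent progenitors. They were compared between Nrf2 knockout and wild-type C57BL/6J mice. NRF2, encoded by Nfe2l2, is a transcription factor that drives antioxidant genes, and the title question was its part in the survival of blood stem cells. The knockout group was bone marrow of 5 young healthy Nrf2-/- mice aged 8 to 10 weeks, pooled before sorting and profiled on 1 array. The wild-type group was bone marrow of 5 Nrf2+/+ mice of the same age range and genetic background, pooled and profiled on 1 array. A gene thus has a single value per genotype, with no replicate behind it, and no p-value can be given. The targeted gene Nfe2l2 stood at 9.07 in knockout KSL cells and 9.16 in wild-type KSL cells, at 94.0% of the wild-type level, so its probe set did not mark the knockout array. Where the deletion lies in the gene is not given in the sources used here, and a probe set outside the deleted part checks nothing, so the direction of every difference rests on the labels. The sex of the mice is not given either, and what differs between the pools cannot be told apart from what differs between the genotypes.

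Lymphoid priming begins within the KSL compartment, where progenitors with high Flt3 receptor start to transcribe genes of B and T lymphocytes at low level. Transcription factors such as Ikaros and the E2A proteins open this programme, interleukin-7 receptor carries survival and growth signals once cells leave the compartment, and the recombination enzymes later assemble antigen receptor genes. Such transcripts are used as a readout of the balance between lymphoid and myeloid potential in a progenitor pool, and in bulk RNA fewer primed cells and less RNA per primed cell cannot be told apart.

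The promoter windows of 6 of the genes are shown, chosen to cover the receptor, the E2A gene with the only match to the NRF2 motif among the 10 genes, both rearrangement enzymes and the 2 genes that were lower by more than the probe-set error described below. They run 5′ to 3′ on the gene's strand from 250 bases before the start site to 50 bases after it, come from RefSeq on GRCm38.p6, and print in capitals every match to the E-box CANNTG, bound by E proteins, and to TGACNNNGC, the core of the antioxidant response element bound by NRF2 with small MAF proteins. The windows lie at chr15:9529827-9530126 for Il7r, chr10:80433586-80433885 for Tcf3, chr2:101649483-101649782 for Rag1, chr2:9878551-9878850 for Gata3 and chr1:133690059-133690358 for Lax1, all on the minus strand, and at chr19:41029025-41029324 for Dntt, on the plus strand. Of the 2 RefSeq windows of Lax1, the one with its start site farther upstream is shown.
Il7r: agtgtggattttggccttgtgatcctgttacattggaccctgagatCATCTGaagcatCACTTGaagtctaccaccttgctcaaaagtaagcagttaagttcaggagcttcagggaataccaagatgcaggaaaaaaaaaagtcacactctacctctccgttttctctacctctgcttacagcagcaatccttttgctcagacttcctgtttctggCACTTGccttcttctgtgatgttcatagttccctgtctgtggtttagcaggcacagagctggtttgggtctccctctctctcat
Tcf3: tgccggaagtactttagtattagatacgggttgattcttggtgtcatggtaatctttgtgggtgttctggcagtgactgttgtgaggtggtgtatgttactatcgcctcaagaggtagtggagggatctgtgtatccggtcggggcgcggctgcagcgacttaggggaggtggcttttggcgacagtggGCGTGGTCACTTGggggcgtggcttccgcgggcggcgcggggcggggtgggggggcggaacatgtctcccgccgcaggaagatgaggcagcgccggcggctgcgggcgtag
Dntt: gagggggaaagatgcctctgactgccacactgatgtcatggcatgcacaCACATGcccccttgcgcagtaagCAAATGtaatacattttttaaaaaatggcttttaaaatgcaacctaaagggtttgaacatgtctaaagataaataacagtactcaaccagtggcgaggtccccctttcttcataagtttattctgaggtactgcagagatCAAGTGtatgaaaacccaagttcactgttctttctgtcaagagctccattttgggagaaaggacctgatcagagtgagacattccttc
Rag1: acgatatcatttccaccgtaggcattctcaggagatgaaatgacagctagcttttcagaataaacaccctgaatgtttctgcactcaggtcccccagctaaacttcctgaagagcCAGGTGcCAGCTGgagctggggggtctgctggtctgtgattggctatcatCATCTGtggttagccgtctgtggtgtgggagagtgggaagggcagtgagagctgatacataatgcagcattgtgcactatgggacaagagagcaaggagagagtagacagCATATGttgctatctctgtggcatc
Gata3: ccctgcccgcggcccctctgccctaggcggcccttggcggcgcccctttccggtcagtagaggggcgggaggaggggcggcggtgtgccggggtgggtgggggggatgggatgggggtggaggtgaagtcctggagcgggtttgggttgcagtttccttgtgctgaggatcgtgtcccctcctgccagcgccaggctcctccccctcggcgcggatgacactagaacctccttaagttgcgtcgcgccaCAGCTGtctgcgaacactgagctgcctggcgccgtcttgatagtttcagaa
Lax1: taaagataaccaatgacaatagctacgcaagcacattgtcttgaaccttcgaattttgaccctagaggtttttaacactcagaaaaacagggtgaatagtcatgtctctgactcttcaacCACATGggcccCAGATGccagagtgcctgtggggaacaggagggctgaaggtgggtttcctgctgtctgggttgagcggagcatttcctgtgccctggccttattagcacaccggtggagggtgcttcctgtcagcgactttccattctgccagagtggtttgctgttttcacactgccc

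The RefSeq table held 18 windows for the 10 genes, with at least 1 window for each. The NRF2 core was matched in 1 of the 18 windows, that of Tcf3, against 12.4% of all 32851 windows in the table. The Tcf3 match, GCGTGGTCA on the printed strand and so the motif on the other strand, starts 61 bases before the start site. It overlaps the E-box CACTTG that starts 54 bases before the start site, so the capitals form 1 run. The E-box was matched in 14 of the 18 windows, covering 9 of the 10 genes, against 72.3% of all windows, a share close to that background. Rag1 has 4 E-boxes in its window, among them CAGGTG and CAGCTG, 135 and 128 bases before the start site, and Il7r and Dntt have 3 each. The Ikaros core TGGGAA was matched on either strand in 4 of the 18 windows, in Bcl11a, Satb1 and Rag1, against 25.6% of all windows. The GATA motif AGATAA was matched in 2 of the 18, in Dntt and Lax1, against 11.2%. A match is a run of letters and was not tested as a binding site.

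The 10 genes stood at similar levels in the knockout and wild-type pools, with most slightly higher in the knockout array, and Gata3 and the probe set annotated to Lax1 lower. Values are log2 intensities, and a difference is the knockout minus the wild-type log2 value. A level filter was set at the median over genes of the mean of both arrays, 6.57, and 9 of the 10 genes passed it, the exception being Rag1. Of these 9 genes, 6 were higher and 3 lower in the knockout array, while 46.5% of the 9970 genes past the filter were higher and 52.9% lower. The median difference of the 9 genes was 0.12, beside −0.02 over all genes past the filter. Their mean was 0.02, since Lax1 and Gata3 lay farther from 0 than any of the higher genes, and without Lax1 the median was 0.18. At least 2-fold apart were 0 of the 9, against 1.17% of genes past the filter, and at least 1.5-fold apart were also 0, against 6.64%. With Rag1 included, 7 of 10 were higher, against 50.7% of all genes, and the median was 0.18, against 0.01 over all 19938 genes. Since the genes were chosen with earlier results of these arrays known, their counts are descriptions.

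**Figure D1:**
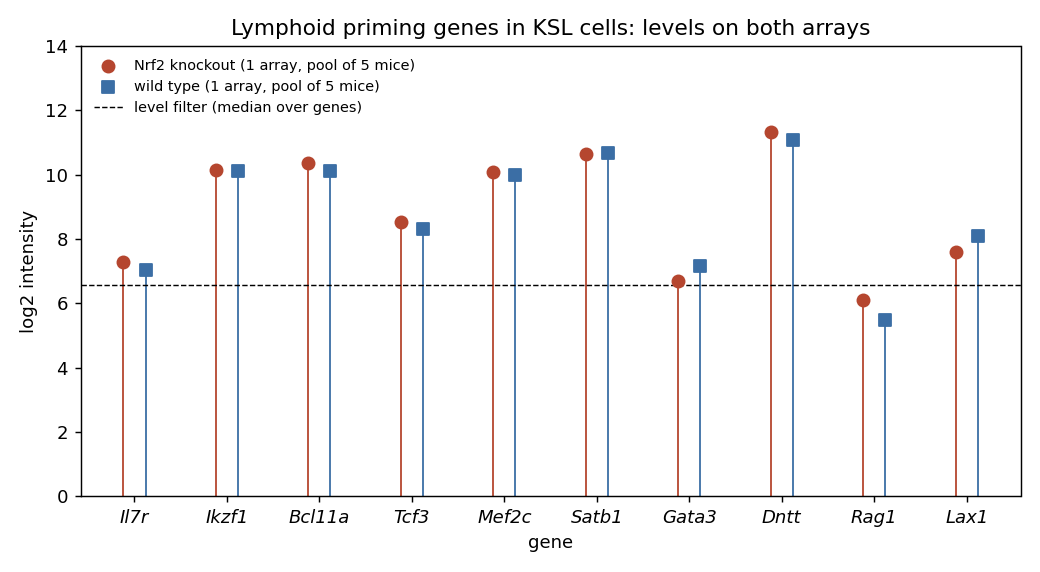
Log2 intensity of each lymphoid priming gene on the knockout array (circles) and the wild-type array (squares), 1 pool of 5 mice each, with the level filter of 6.57 dashed. Rag1 lies under the filter on both arrays, and the gap between a circle and its square is at most 0.64; levels of different genes rest on different probes and are not to be compared.

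An array with 1 pool per genotype has no replicate error, so the differences were read against 2 other spreads. Over genes past the filter the differences had an SD of 0.33, and the middle 95% lay between −0.73 and 0.57. Among 515 genes past the filter with exactly 2 probe sets, the SD of a single probe set's difference was 0.31, or 0.17 by a robust estimate. This covers how probes behave and leaves out the spread between mice, sorts and amplifications. Of the 9 genes past the filter, Lax1 and Gata3 lay farther from 0 than 0.31, as did 24.6% of genes past the filter, and 6 of the 9 lay farther than 0.17, as did 49.3%.

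**Figure D2:**
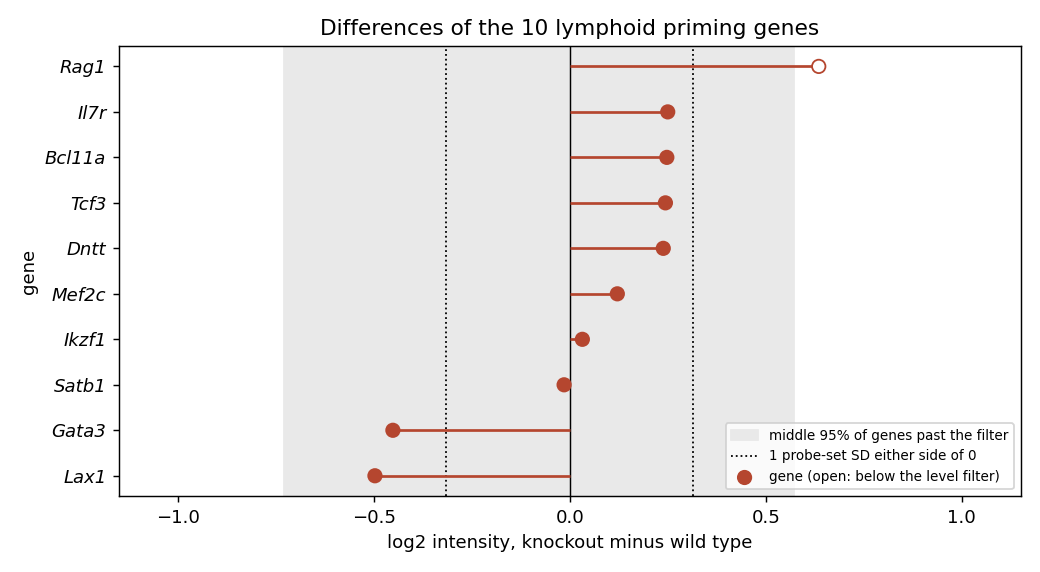
Knockout minus wild-type log2 intensity of the 10 genes (points), with the middle 95% of genes past the filter in grey, from −0.73 to 0.57, and 1 probe-set SD of 0.31 on either side of 0 dotted. Il7r, Bcl11a, Tcf3 and Dntt lie together between 0.24 and 0.25, Gata3 and Lax1 lie at −0.45 and −0.50, and Rag1, drawn open because it is below the level filter, lies at 0.64. Both spreads were taken from genes past the filter, so they are no measure for Rag1.

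Il7r encodes the alpha chain of the interleukin-7 receptor, which marks lymphoid progenitors as they leave the KSL compartment. Its level was 7.29 in knockout cells and 7.04 in wild-type cells. The difference of 0.25 put the knockout pool at 119% of the wild-type level, and 13.8% of genes past the filter were higher by at least as much. It is smaller than the probe-set SD of 0.31.

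Other genes of interleukin-7 signalling had a median close to 0. Of 13 listed, 11 had a value and 9 passed the filter, with 5 higher, 4 lower, 0 at least 2-fold apart and a median difference of 0.02. The signal transducer Stat5a stood at 8.83 in knockout KSL cells and 8.65 in wild-type KSL cells, a difference of 0.19. Socs1, a feedback inhibitor of cytokine signalling, differed by 0.13, and Pim1, a kinase induced by STAT5, by −0.15. Cish, a further inhibitor induced by STAT5, stood at 6.71 in knockout cells, against 7.05 in wild-type cells, a difference of −0.34, the largest in absolute size among the 9 past the filter. Il7 itself, the ligand, below the filter and named after its values were seen, stood at 5.07 in knockout cells and 4.63 in wild-type cells.

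The 5 transcription factors that set up the lymphoid programme had differences between −0.01 and 0.25, with a median of 0.12 and 4 of the 5 higher in the knockout array. Bcl11a, a zinc finger repressor needed for lymphoid development, stood at 10.36 in knockout cells and 10.11 in wild-type cells, a difference of 0.25. Tcf3, which encodes the E2A proteins E12 and E47, stood at 8.54 in knockout KSL cells and 8.30 in wild-type KSL cells, a difference of 0.24. Both sizes are almost that of Il7r, and neither exceeds the probe-set SD. The scatter around these genes was not alike: 6.06% of the 842 genes within 0.5 of the mean level of Bcl11a were higher by at least as much, against 17.7% of the 2795 genes around Tcf3. The differences of these neighbours in level had an SD of 0.22 around Bcl11a and Dntt and between 0.34 and 0.36 around Tcf3, Il7r, Gata3 and Lax1.

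Mef2c, a MADS-box factor that favours lymphoid over myeloid fate, stood at 10.09 in knockout cells, against 9.97 in wild-type cells, a difference of 0.12. Ikzf1 encodes Ikaros, the zinc finger factor that lymphoid priming depends on, and its levels of 10.15 in knockout cells and 10.11 in wild-type cells were 0.03 apart. Satb1, a chromatin organiser of early lymphoid cells, stood at 10.66 in knockout KSL cells and 10.67 in wild-type KSL cells. Its difference of −0.01 became slightly positive after loess and median centring and 0.00 after quantile normalization, so it has no direction in these arrays. Ikzf1 and Satb1 were the 2 genes of the 10 closest to equal.

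**Figure D3:**
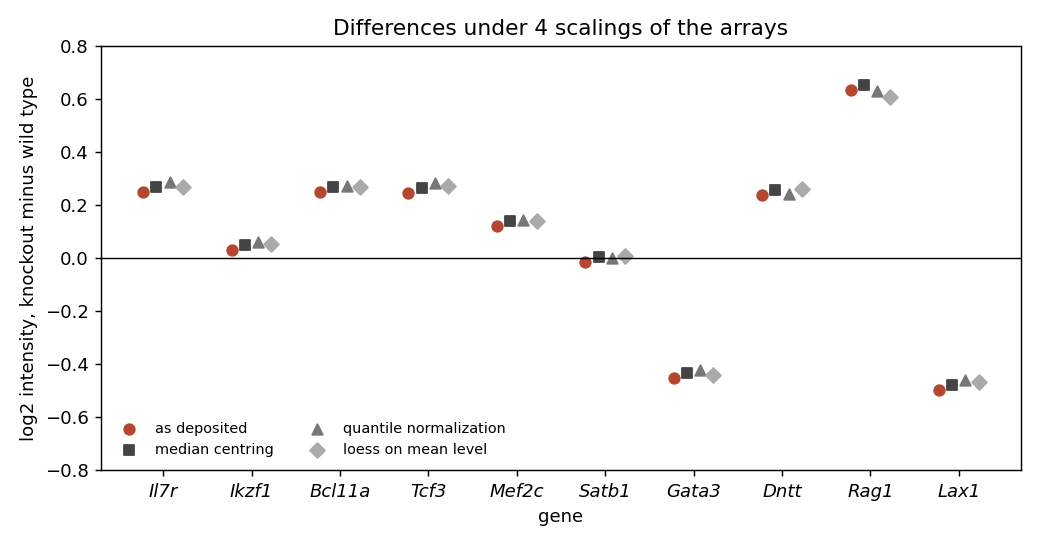
Knockout minus wild-type log2 intensity of each gene for the deposited values and after loess on mean level, median centring or quantile normalization. Satb1 lies at 0 within 0.02 and turns sign, and the other 9 genes keep their sign under all 3 scalings, with Il7r between 0.25 and 0.29 and Lax1 between −0.50 and −0.46.

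Relatives of these factors that passed the filter lay close to 0. Of 13 paralogs of the member factors listed, 11 had a value and 8 passed the filter, with 4 higher, 4 lower and a median difference of 0.02. Their differences ran between −0.11 for the E protein gene Tcf12 and 0.13 for Mef2d. The third E protein gene, Tcf4, stood at 9.78 in knockout cells, against 9.70 in wild-type cells, and Ikzf5 differed by −0.10. The paralogs below the filter, named after their values were seen, were Ikzf3 at −0.41, Gata1 at 0.28 and Ikzf4 at 0.00. Of the 3 E protein genes, only Tcf3 differed by more than 0.17, the robust probe-set SD. That size was exceeded by 49.3% of genes past the filter, and none of the 3 exceeded the probe-set SD of 0.31.

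E proteins act with bHLH partners and are held back by ID proteins, which bind them without binding DNA. Of 8 such genes, 5 passed the filter, with 3 higher and 2 lower. The median difference was 0.06 and the mean −0.02. The haematopoietic bHLH factors Lyl1 and Tal1 were higher in the knockout array by 0.19 and 0.18, and Ldb1, which encodes a protein that bridges bHLH and GATA complexes, by 0.06. Id1 stood at 6.45 in knockout cells and 6.96 in wild-type cells, a difference of −0.50, and passed the filter only through its wild-type level. Id2, named after its values were seen because it lay farthest apart in the list, stood at 5.67 in knockout KSL cells and 7.06 in wild-type KSL cells, a difference of −1.39, or 2.63-fold lower. Its mean level is below the filter, where the size of a difference is less sure. Id2 is also transcribed in mature myeloid cells and natural killer cells, whose markers are given further on, and their part in the result was not tested.

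Gata3 encodes the zinc finger factor of T cell fate, which stem and progenitor cells also transcribe. It stood at 6.70 in knockout cells, against 7.16 in wild-type cells, close to the filter level on the knockout array. The difference of −0.45 put the knockout pool at 73.1% of the wild-type level, and 7.79% of genes past the filter were lower by at least as much. It exceeds 1 probe-set SD and not 2.

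Dntt and Rag1 belong to the machinery that rearranges antigen receptor genes, and both were higher in the knockout array. Dntt encodes terminal deoxynucleotidyl transferase, which adds nucleotides without a template at the joints, and its levels were 11.31 in knockout cells and 11.07 in wild-type cells. The difference of 0.24 put the knockout pool at 118% of the wild-type level. Of the 306 genes within 0.5 of its mean level, 26, or 8.5%, were higher by at least as much.

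Rag1 encodes the recombinase subunit that cuts DNA at receptor gene segments. Its levels were 6.10 in knockout KSL cells and 5.47 in wild-type KSL cells, both under the filter. The difference of 0.64, or 1.55-fold, was the largest among the 10 genes in absolute size and the only one of at least 1.5-fold, a size that 4.89% of all genes reached in either direction. Of the 3779 genes within 0.5 of its mean level, 40, or 1.06%, were higher by at least as much. Rag2, the partner without which RAG1 does not cut, was named for this pairing and stood at 5.61 in knockout cells, against 5.54 in wild-type cells, a difference of 0.07. Both subunits of the recombinase were thus read from signals below the filter, and Rag2 was nearly level.

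Of 13 further genes of recombination and end joining, 12 had a value and 9 passed the filter, with 6 higher, 3 lower and a median difference of 0.14. Poll, a DNA polymerase of the same family as the Dntt product, stood at 7.38 in knockout cells and 6.63 in wild-type cells, a difference of 0.75. The end-binding Ku subunits differed in opposite directions: Xrcc6, for Ku70, was higher by 0.44, and Xrcc5, for Ku80, stood at 8.57 in knockout KSL cells and 9.17 in wild-type KSL cells, a difference of −0.60. Lig4, the ligase of end joining, was higher by 0.31. At least 2-fold apart were 0 of the 9, against 1.17% of genes past the filter. At least 1.5-fold apart were 2, Poll and Xrcc5, against 6.64%.

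Lax1 encodes a transmembrane adaptor of lymphocytes that dampens antigen receptor signals. The probe set annotated to it, whose ID lies out of chromosome order, stood at 7.58 in knockout cells, against 8.08 in wild-type cells. The difference of −0.50 put the knockout pool at 70.9% of the wild-type level and was the lowest of the 10 genes, and 6.31% of genes past the filter were lower by at least as much.

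The 7 related adaptors and binders listed beside Lax1 gave 4 genes past the filter. All 4 were lower in the knockout array, as were 52.9% of all genes past the filter, and their median difference was −0.26. Over all 7, 2 were higher and 5 lower. Lat2, an adaptor of B cells and myeloid cells, stood at 7.64 in knockout cells and 8.19 in wild-type cells, a difference of −0.55. Gab2, a docking protein of cytokine and antigen receptors, differed by −0.36, the T cell adaptor Lat by −0.16 and the adaptor Grb2 by −0.11. Neutrophil and monocyte-macrophage markers were lower in the same array, as given below, and their part in these differences was not tested.

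**Figure D4:**
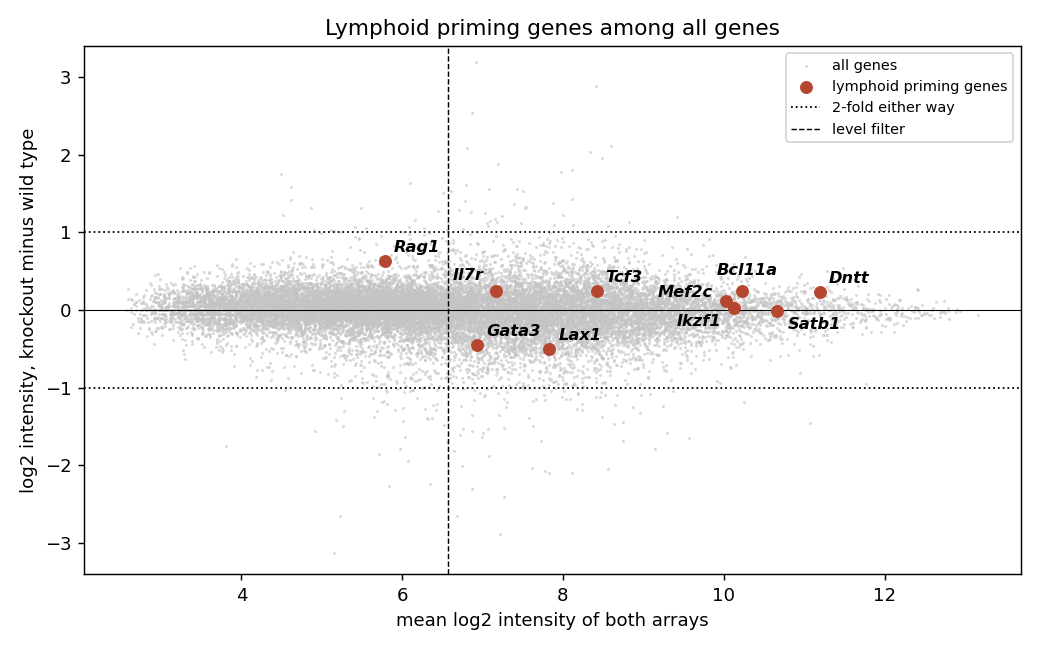
Knockout minus wild-type log2 intensity against the mean level of both arrays for all 19938 genes (grey) and the 10 lymphoid priming genes (labelled), with 2-fold dotted and the level filter of 6.57 dashed. All 10 genes lie inside the 2-fold lines, and the scatter of genes of similar level is narrower around Bcl11a and Dntt (SD 0.22 each) than around Il7r (SD 0.36) or Lax1 (SD 0.35).

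Other genes of lymphoid priming did not share a direction. Of 18 listed, 16 had a value and 12 passed the filter, with 6 higher, 6 lower, 0 at least 2-fold apart, a median difference of −0.02, which turned positive with loess and quantile normalization, and a mean of 0.02. Ly6d, a surface marker of progenitors bound for the B lineage, stood at 7.06 in knockout KSL cells and 6.39 in wild-type KSL cells, a difference of 0.67 or 1.60-fold. Ly6d passed the filter only through its knockout level. On the wild-type array it lay below the filter, where the size of a difference is less sure. Cd27, a surface receptor of multipotent progenitors, was higher by 0.16. Hes1, a repressor downstream of Notch, and Sox4, a factor of early B and T development, both differed by −0.29. Flt3, the receptor that defines lymphoid-primed progenitors and named here for that role, stood at 10.94 in knockout cells, against 10.84 in wild-type cells, a difference of 0.10.

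Markers of committed lymphocytes were mostly below the filter in both pools. Of 13 B lineage markers with a value, 5 passed, with 3 higher and 2 lower, a median difference of 0.04 and a mean of −0.12. Over all 13, 6 were higher and 7 lower, with a median of −0.03. Cd79b, a signalling chain of the B cell receptor, stood at 7.38 in knockout cells and 8.17 in wild-type cells, a difference of −0.79, while Vpreb1, a surrogate light chain of pro-B cells, was higher by 0.18. Cd72, a B cell co-receptor, was higher by 0.17, and Igll1, the other surrogate light chain, differed by −0.20. Igll1 passed the filter only through its wild-type level.

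Of 12 T lineage markers with a value, 4 passed the filter, with 2 higher, 2 lower and a median difference of −0.04. Over all 12, 3 were higher and 9 lower, with a median of −0.12. Cd3d and Cd3g, for CD3 chains of the T cell receptor complex, lay below the filter and were named after their values were seen. They differed by −0.62 and −0.58. Cd3e, a chain of the T cell receptor complex, stood at 6.70 in knockout KSL cells and 6.82 in wild-type KSL cells. Cd247 and Cd28 were higher by 0.09 and 0.04. Of 11 natural killer cell markers, 7 were higher and 4 lower, while 50.7% of all genes were higher. Gzma, below the filter and named after its values were seen, differed by −0.87, the largest in absolute size among the 11. Past the filter were 2, Prf1 at 0.19 and Nkg7 at −0.48, and the defining Klrb1c stood at 4.28 in knockout cells, against 4.10 in wild-type cells. Of 8 plasmacytoid dendritic cell markers 4 passed, with 2 higher, 2 lower, a median difference of 0.04 and a mean of 0.17. The higher were Ly6d at 0.67 and Tcf4 at 0.08. The lower were Irf8 at −0.05 and Bst2 at −0.01, and Bst2 turned positive under all 3 scalings.

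Markers of mature myeloid cells, which a KSL gate should leave out, lay farther from 0 by median than the lymphoid priming genes. Of 13 neutrophil markers, 11 passed the filter, and 11 of 11 were lower in knockout cells. Below the filter, Mmp9 differed by −0.82 and Ly6g, named after its values were seen, by 0.51. The list's median level was 7.90 in knockout cells and 9.59 in wild-type cells, and its median difference was −1.64. The 8 that were at least 2-fold lower, a size that 0.762% of genes past the filter reached, were Retnlg, Lcn2, Mmp8, Chil3, Ltf, Camp, Cxcr2 and S100a8, with differences between −2.66 and −1.45. Of these, Retnlg, Mmp8 and Cxcr2 passed the filter only through their wild-type levels and lay below it on the knockout array, where the size of a difference is less sure. S100a8, a calcium-binding protein of neutrophil cytosol, measured 10.34 in knockout KSL cells and 11.79 in wild-type KSL cells. Of 8 monocyte-macrophage markers past the filter, 7 were lower and 1 higher, with a median difference of −0.52, and over all 11 with a value 10 were lower and 1 higher. Csf1r, the receptor of their growth factor, measured 7.02 in knockout cells, against 7.68 in wild-type cells, Ms4a6c was 2.01-fold lower, Ly86 differed by −0.80 and Cd68 was higher by 0.63. The part of these cells in the lymphoid values was not tested.

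Genes of the gate and of other lineages had medians close to 0. Of 12 KSL gate and stem cell markers, 10 had a value and 8 passed the filter, with 4 higher, 4 lower and a median difference of 0.06. Kit, the c-Kit receptor of the gate, stood at 11.21 in knockout cells and 10.93 in wild-type cells. Thy1 and Meis1 were higher by 0.36 and 0.35, and Mecom differed by −0.45. Ly6a, for Sca-1, was not analysed here. Of 6 erythroid and megakaryocyte markers past the filter, 4 were higher and 2 lower, with a median difference of 0.05 and a mean of −0.02. The platelet genes Pf4 and Vwf were higher by 0.79 and 0.63, whereas Gp5, also of platelets, and the red cell enzyme Car1 were at −0.90 and −0.75.

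**Figure D5:**
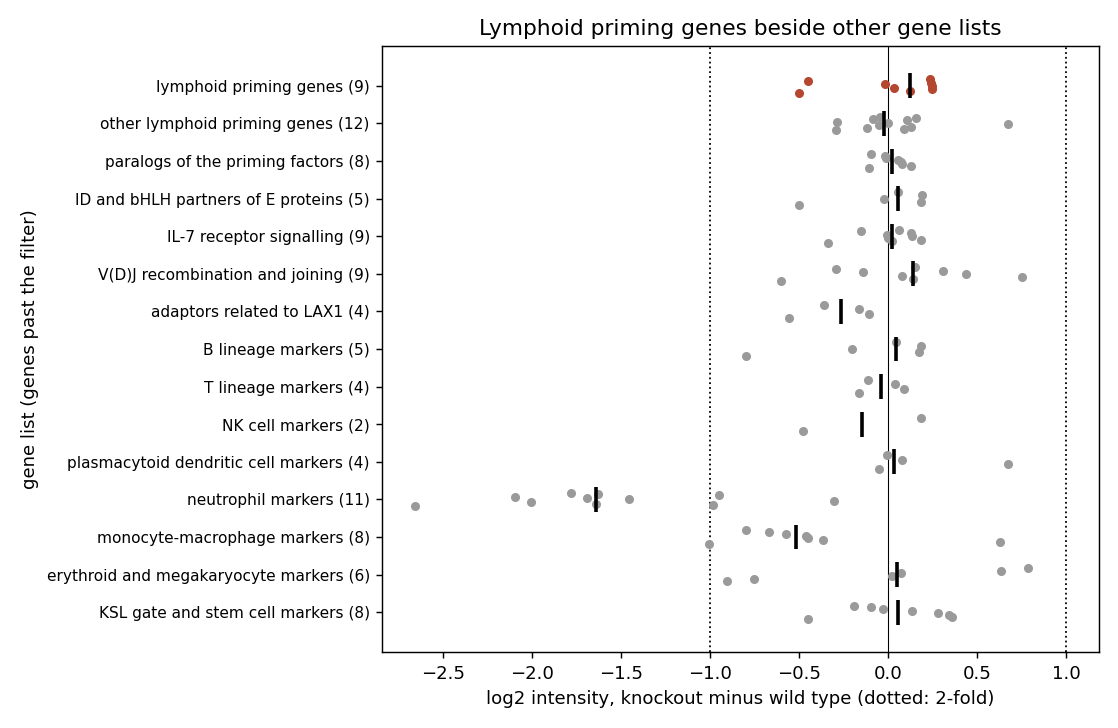
Knockout minus wild-type log2 intensity of the genes past the filter (points) in the lymphoid priming group (red) and in 14 other gene lists (grey), with list medians as black bars and 2-fold dotted. The lymphoid priming genes have a median of 0.12 and lie within 2-fold, while the neutrophil markers have a median of −1.64 and the monocyte-macrophage markers one of −0.52.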

How the data were processed

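KSL cells of 1 knockout and 1 wild-type pool were profiled on Affymetrix Mouse Gene ST 1.0 arrays after NuGEN Ovation amplification and labelling, per the labels' protocols. The authors deposited log2 intensities, with a value for every probe set; their base was inferred from the range, between 2.40 and 13.79 over both arrays. The submitters' processing notes name Partek; for background, scaling and probe summary, the method is not given in the sources used here. Sorted from low to high, the values of the arrays differ by at most 0.09, so a change common to all genes could be hidden.

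Of 28853 probe sets, 21789 had 1 symbol in the platform annotation, 1621 several and 5443 none. Those with 1 symbol were averaged per gene, with symbols checked through the Entrez ID against GRCm38.p6, which changed 0 symbols. Differences are knockout minus wild type with no further normalization and, with 1 array each, no test; the number of arrays limits the precision. Promoter windows are RefSeq's. Alternatives were median centring, quantile normalization, loess with a span of 0.3, other level filters, the brightest probe set, a 1.5-fold size, and means of lists or lists without their farthest gene. The per-gene difference and the scalings were tested on simulated data with planted shifts. The filter, the probe-set SD and the list counts were not tested in this way. The text names every lymphoid priming gene, Nfe2l2 and the defining markers. For other lists it names up to 4 genes past the filter with the largest absolute difference and those at least 2-fold apart. Flt3, Rag2, Id2, Il7, Mmp9, Ly6g, Cd3d, Cd3g, Ikzf3, Ikzf4, Gata1 and Gzma were named outside this rule. The members and lists were chosen with earlier results of these data known. Python 3.11.15, numpy 2.4.6, pandas 2.3.3, statsmodels 0.14.6 and matplotlib 3.10.9 were used.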

Additional observations from a re-analysis of the deposited data

How the results depend on the processing

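No paired analysis was possible because each genotype has 1 array. The median difference of the lymphoid priming genes past the filter lay between 0.12 and 0.18 under 8 of the alternatives, and was 0.02 as a mean. Among the 8, the 1.5-fold size does not enter a median. The brightest probe set leaves the values of these genes as they are, since each has 1 probe set. Satb1 turned sign, to 0.0041 with median centring and 0.0061 with loess. With the filter at the 75th percentile, 5 lymphoid priming genes past it were higher and 1, Satb1, was lower. Lax1, Gata3 and Il7r fell below that filter. At least 1.5-fold apart were 6.64% of genes past the filter. By list, such genes numbered 1 among B lineage markers and 2 in recombination and joining. They numbered 4 among erythroid and megakaryocyte markers, 4 among monocyte-macrophage markers and 10 among neutrophil markers. The 1 among other lymphoid priming genes and the 1 among plasmacytoid dendritic cell markers were the same gene, Ly6d. With no level filter, 1 gene of the ID and bHLH list, Id2, was at least 2-fold apart. Monocyte-macrophage markers had 0 at least 2-fold apart with the 75th percentile filter, median centring, quantile normalization and loess, where Ms4a6c, 2.01-fold lower as deposited, no longer counted, and neutrophil markers had 5 with the 75th percentile filter. The median of the 2 natural killer markers past the filter, −0.15, was −0.48 with the 75th percentile filter, 0.17 with no filter and 0.19 without Nkg7. Among the named genes put through the 3 scalings, 68 kept their sign and 2, Satb1 and Bst2, did not. Il7, Mmp9, Ly6g, Cd3d, Cd3g, Ikzf3, Ikzf4, Gata1 and Gzma were not part of this count. Of the list medians, 14 kept their sign and 1 did not. The median of all genes past the filter was −0.02 as deposited and between −0.0016 and 0.0147 after scaling. No replicate could be left out, and differences of genes below the filter, Rag1, Rag2, Id2 and Klrb1c among them, rest on weak signal. Ly6d, Id1, Igll1, Retnlg, Mmp8 and Cxcr2 passed the filter by their mean but lay below it on 1 of the arrays.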
